A study of Homo sapiens with 4 samples.

Results

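Transcripts of 10 genes of the ATF4 and XBP1 stress responses were measured in FT190 cells, a human epithelial line whose cells the labels call ovarian and which is known to derive from immortalised secretory cells of the human fallopian tube. The genes were chosen by symbol, as the rows of the count table annotated ATF4, ATF5, DDIT3, ASNS, PHGDH, PSAT1, TRIB3, SESN2, XBP1 and EDEM1. Each matched 1 row, so the set holds 10 of 63241 genes in the table, and all 10 were among the 18781 genes that passed the filter on low counts. The first 8 were taken as an amino acid arm and the last 2 as an endoplasmic reticulum (ER) arm. The 2 control libraries came from cells given what the series calls a PLKO control. The 2 shSMARCA4 libraries came from cells in which a hairpin RNA targeted SMARCA4, a catalytic subunit of the SWI/SNF chromatin remodellers. Both groups carried the label WT for genotype and were grown in RPMI medium with serum and added glutamine, without pyruvate. The treatment label names a single hairpin, and the labels give neither the time after its introduction nor whether the replicates were grown as separate cultures, so the p-values cover only the scatter among these libraries, and that scatter may be technical.

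ATF4 is a basic leucine zipper factor whose protein is made mainly when translation initiation factor eIF2 is phosphorylated, as happens when amino acids are short, when proteins misfold in the ER or when mitochondria are disturbed. It pairs with C/EBP proteins and raises enzymes of asparagine and serine synthesis, amino acid transporters and tRNA synthetases, a programme called the integrated stress response. XBP1 is activated by splicing of its RNA by the ER sensor IRE1 (ERN1) and raises genes of ER protein folding, export and degradation. Counts per gene measure neither the ATF4 protein nor the spliced share of XBP1.

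Promoter windows from RefSeq (GRCh38.p14), 250 bases before to 50 bases after each annotated start, were found for all 10 genes, as 18 windows of 300 bases. Each was searched on both strands for the core of the C/EBP-ATF element (TGATGNAA), the cAMP response element (TGACGTCA), an XBP1 element (TGACGTGG) and the ER stress element, which is CCAAT and CCACG with 9 bases between them. Each of the windows with a match held 1 match, so no matches overlapped. ASNS was the only member with a C/EBP-ATF core and XBP1 the only member with an ER stress element. These windows are shown because they hold the only matches. The XBP1 element, a different motif, was in no member window. The other 16 windows held none of the 4 motifs, which says only that these letters are not in those windows. Of 35116 windows in the table, 3.62% held the C/EBP-ATF core, 1.85% the cAMP response element, 0.729% the XBP1 element and 0.0769% the ER stress element. Capitals mark the match, in the direction of transcription.

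ASNS promoter, minus strand, chr7:97872359-97872658: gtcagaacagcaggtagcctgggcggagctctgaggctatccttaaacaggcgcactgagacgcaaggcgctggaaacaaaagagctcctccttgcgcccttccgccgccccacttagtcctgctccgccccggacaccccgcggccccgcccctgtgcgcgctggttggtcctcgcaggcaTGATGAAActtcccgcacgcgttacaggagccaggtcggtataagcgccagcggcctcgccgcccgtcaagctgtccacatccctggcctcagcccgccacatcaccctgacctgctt
XBP1 promoter, minus strand, chr22:28800520-28800819: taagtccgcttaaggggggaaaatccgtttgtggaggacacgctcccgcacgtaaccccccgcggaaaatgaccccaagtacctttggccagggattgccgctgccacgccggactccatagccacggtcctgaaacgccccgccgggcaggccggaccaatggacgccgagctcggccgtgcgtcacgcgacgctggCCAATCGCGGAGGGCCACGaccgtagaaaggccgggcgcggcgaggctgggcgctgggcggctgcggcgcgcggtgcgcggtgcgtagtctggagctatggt

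The match in ASNS reads TGATGAAA and begins 68 bases before the RefSeq start, and that in XBP1 reads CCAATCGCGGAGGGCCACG and begins 52 bases before it. The ASNS transcript used for the counts starts further upstream, so the match lies inside that transcript. Both genes fell in shSMARCA4 cells, as given below.

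Control libraries held 33641343 and 32618516 counts, and shSMARCA4 libraries 28536665 and 27137414. The target of the hairpin, SMARCA4, stood at 171 and 162 CPM (counts scaled to a library of 1e+06) in the controls and at 34 and 36.3 CPM in the shSMARCA4 libraries, a log2 fold change of -2.24 (SE 0.052). Of the epithelial and tubal markers, KRT7, KRT8, KRT18 and PAX8 were expressed in every library, while EPCAM (0.242 to 0.558 CPM), KRT19 (0 to 0.152 CPM), the oviduct glycoprotein OVGP1 (0.183 to 0.254 CPM) and the ciliated cell factor FOXJ1 (0 to 0.0362 CPM) were at or near 0. Of the marker lists, 6 epithelial markers summed to 1780 and 1673 CPM in controls and to 1180 and 1183 CPM in shSMARCA4 cells. The 6 fibroblast markers summed to 2453 and 2507 against 1850 and 1986 CPM. Most of that was COL1A1, at 1968 and 2004 CPM in controls and 1540 and 1663 CPM in shSMARCA4 cells. THY1 (242.6 and 237.4 against 187.5 and 195.8 CPM) and LUM (219.1 and 236.7 against 107.1 and 109.5 CPM) made most of the rest. COL3A1 and DCN were at or near 0. The 5 tubal secretory markers summed to 86.9 and 89.0 CPM in controls and to 91.0 and 90.9 CPM in shSMARCA4 cells, with WT1 at 14.8 and 13.8 against 18.4 and 18.0 CPM and MSLN at 14.3 and 15.2 against 9.11 and 9.20 CPM. Summed endothelial markers were low, at 2.29 and 2.85 CPM in controls and 1.21 and 1.49 CPM in shSMARCA4 cells, most of it TIE1 in the controls. Summed immune markers lay between 23.2 and 25.7 CPM, nearly all from the lysosomal gene CD68, with the T cell marker CD3E at no more than 0.031 CPM. The part of these changes in the values below was not tested. Fewer cells with a transcript and less of it per cell cannot be told apart in these bulk libraries.

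Of the 10 genes, 5 fell (ATF4, DDIT3, ASNS, PHGDH and XBP1), 2 rose (ATF5 and EDEM1) and 3 did not pass the test (PSAT1, TRIB3 and SESN2). A gene is said to have risen or fallen where its adjusted p was under 0.05 by the quasi-likelihood test of edgeR, with p-values adjusted by the method of Benjamini and Hochberg over all 18781 genes. By that rule 29.7% of all genes tested passed, 13.8% as higher and 15.8% as lower. Among the 10304 genes whose mean reached 9.66 CPM, the lowest mean of a member, 40.6% passed. Changes were small, with log2 fold changes of the members between -0.35 and 0.30. The groups did not overlap in any of the 10 genes, as in 65.9% of all genes tested. The median log2 fold change was -0.24 over the 10 genes and 0.00 over all genes tested (-0.0045). With no filter on low counts 1 member passed as higher and 2 as lower, and leaving out single libraries gave 1 to 3 higher and 4 to 7 lower. A fit without 1 library takes its scatter from the group that keeps 2. Calls gained or lost in such fits, here and below, do not measure the spread of the other group.

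**Figure D1:**
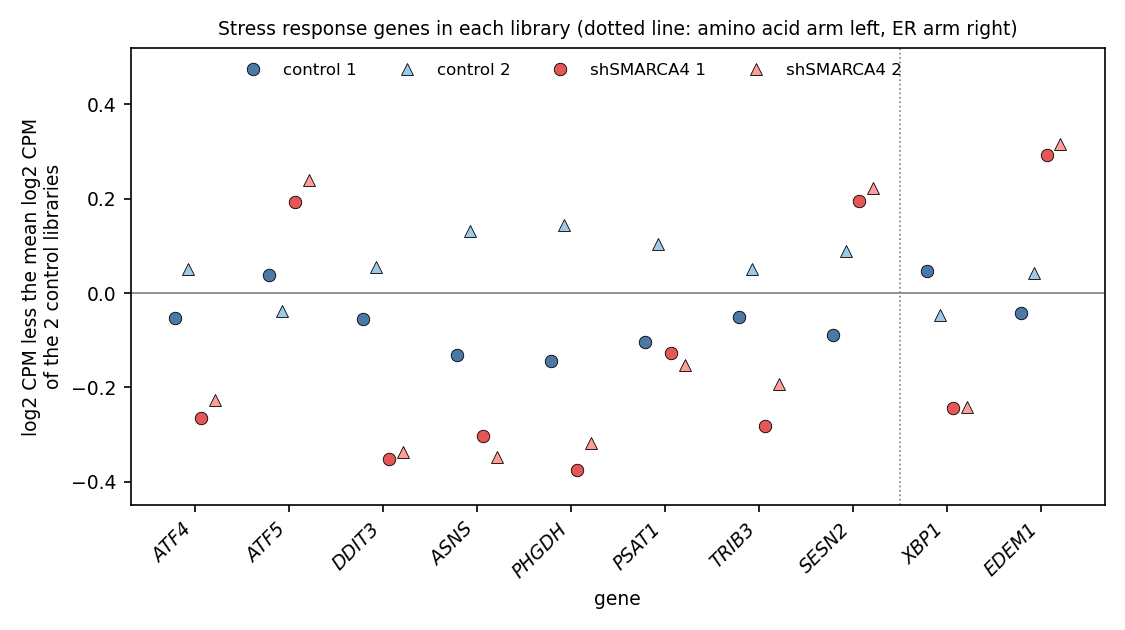
Log2 CPM of each gene in each library, less the mean log2 CPM of the control libraries (vertical axis, log2 units). Circles are replicate 1 and triangles replicate 2, blue for control and red for shSMARCA4. In ATF5, SESN2 and EDEM1 both shSMARCA4 libraries sit above both controls, and in the other 7 genes below them.

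Per kilobase of the transcript length given in the table, ATF4 had the highest control level of the 10, at 125 and 134 CPM per kilobase in the control libraries, and SESN2 the lowest, at 5.30 and 5.99. Between them stood PSAT1 (80.8 and 93.2), XBP1 (70 and 65.7), PHGDH (47.8 and 58.4), ASNS (44.1 and 52.8), ATF5 (18.4 and 17.5), EDEM1 (13.8 and 14.6), DDIT3 (9.81 and 10.6) and TRIB3 (6.45 and 6.91 CPM per kilobase). PHGDH and ASNS were the only neighbours in this order whose control libraries overlapped. In shSMARCA4 cells the order was the same except at its end, where SESN2 (6.46 and 6.58 CPM per kilobase) stood above TRIB3 (5.50 and 5.85). The length is that of 1 transcript per gene.

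**Figure D2:**
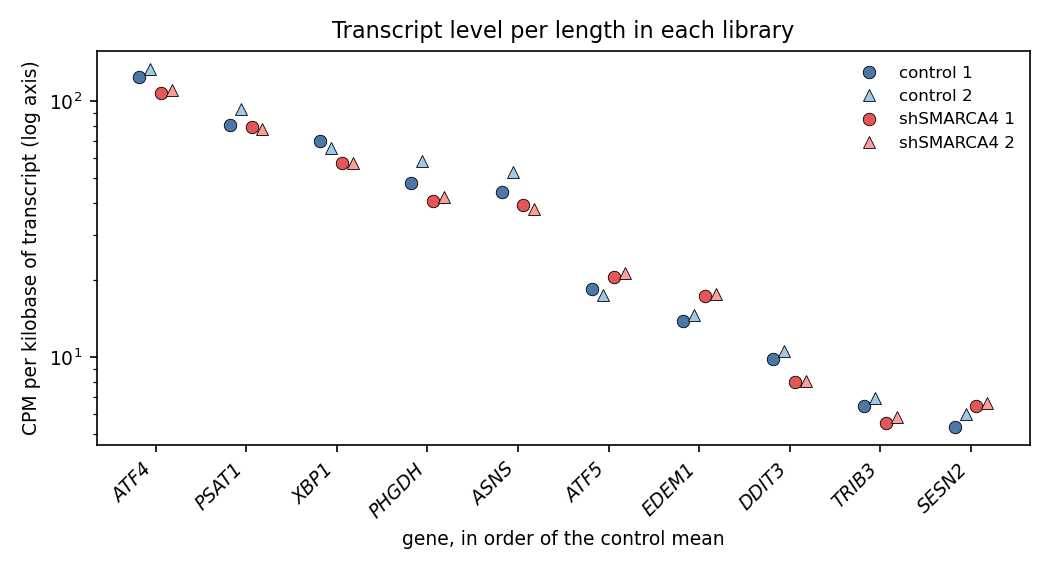
Level of each gene in CPM per kilobase of transcript (vertical log axis) in the 4 libraries, in order of the control mean. ATF4 is highest in every library, and TRIB3 and SESN2 change places between the groups.

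The transcription factors of the amino acid arm moved in both directions. ATF4 (ENSG00000128272.18, chromosome 22, 39520564 to 39522683, plus strand, hg38 as all coordinates of genes here), which with XBP1 gives the gene set its name, stood at 251 and 270.2 CPM in controls and at 217 and 223 CPM in the shSMARCA4 libraries. Both shSMARCA4 libraries were below both controls, and the transcript fell by 0.25 on the log2 scale (SE 0.046, adjusted p = 0.00389 by edgeR), from 261 ± 13.3 to 219.8 ± 4.19 CPM (SD, n = 2). The ATF4 call was kept under all 13 alternatives.

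DDIT3 (ENSG00000175197.13, chromosome 12, 57516589 to 57520517, minus strand), which encodes the pro-apoptotic factor CHOP, stood at 10.4 and 11.2 CPM in controls and at 8.46 and 8.55 CPM in the shSMARCA4 libraries. These came from 341, 362, 245 and 236 counts, the fewest of the set. The log2 fold change of DDIT3 was -0.35 (SE 0.096, adjusted p = 0.0240 by edgeR). The call was lost with DESeq2 (adjusted p = 0.119), with no filter (0.0708 by edgeR) and without shSMARCA4 library 1 (0.131) or 2 (0.0919). DDIT3 overlaps the end of MARS1 on the other strand by 64 bases, where reads cannot be told apart because counting used both strands. It also shares 2769 bases with ENSG00000285133 on its own strand, which held 67, 68, 45 and 47 counts. MARS1, a methionyl-tRNA synthetase, had a log2 fold change of 0.01 (SE 0.039).

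ATF5 (ENSG00000169136.13, chromosome 19, 49929205 to 49933935, plus strand), a relative of ATF4 known for regulating mitochondrial stress genes, went the other way. Its levels were 36.9 and 35.0 CPM in controls and 41.1 and 42.5 CPM in the shSMARCA4 libraries. Both shSMARCA4 libraries were above both controls, and ATF5 rose by a log2 fold change of 0.22 (SE 0.055, adjusted p = 0.0165 by edgeR). This call was lost with DESeq2 (adjusted p = 0.0750), with no filter (0.0659 by edgeR) and without shSMARCA4 library 2 (0.138). An unnamed protein-coding gene on the opposite strand, ENSG00000269179, spans all 4731 bases of ATF5 and held 571, 511, 425 and 434 counts, against 1210, 1130, 1190 and 1172 for ATF5, in control 1, control 2, shSMARCA4 1 and shSMARCA4 2. Reads shared with it, with NUP62 and with IL4I1 were not separated.

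Among the biosynthetic enzymes, ASNS and PHGDH fell and PSAT1 did not pass. ASNS (ENSG00000070669.17, chromosome 7, 97852118 to 97872542, minus strand), which makes asparagine and whose promoter is printed above, stood at 103 and 123 CPM in controls and at 91.1 and 88.2 CPM in the shSMARCA4 libraries. The shSMARCA4 libraries were close to each other and below both controls, which differed by 0.26 on the log2 scale. ASNS fell by 0.33 on that scale (SE 0.075, adjusted p = 0.0103 by edgeR). A long non-coding RNA on the same strand, ENSG00000284707, spans all 20425 bases of ASNS and held 3401, 3991, 2668 and 2465 counts, against 3367, 3969, 2639 and 2436 for ASNS, so the ASNS count cannot be told apart from that gene.

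PHGDH (ENSG00000092621.13, chromosome 1, 119648411 to 119744190, plus strand), the enzyme that opens serine synthesis from glycolytic 3-phosphoglycerate, stood at 122 and 149 CPM in controls and at 104 and 108 CPM in the shSMARCA4 libraries. It fell by 0.35 on the log2 scale (SE 0.081, adjusted p = 0.0106 by edgeR), the lowest log2 fold change of the 10. PSAT1 (ENSG00000135069.14, chromosome 9, 78297125 to 78330093, plus strand), the next enzyme of the pathway, stood at 177 and 204 CPM in controls and at 174 and 171 CPM in the shSMARCA4 libraries. Control 1 and the shSMARCA4 libraries lay close together, with control 2 above them. PSAT1 had a log2 fold change of -0.14 (SE 0.063) and did not pass (adjusted p = 0.119 by edgeR). PSPH, the enzyme that completes the pathway, named after its values were seen, fell by 0.23 on the log2 scale (SE 0.062), from 36.2 and 39.7 CPM to 32.7 and 32.1 CPM.

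The size of the difference in these enzymes depended on the control library used. Control 2 stood above control 1 by 0.26 in ASNS, 0.29 in PHGDH and 0.21 in PSAT1 on the log2 scale, against a median absolute difference of 0.11 between the controls over all genes tested. Without control 2 the log2 fold changes were -0.20 for ASNS, -0.20 for PHGDH and -0.04 for PSAT1. Without control 1 they were -0.45, -0.49 and -0.24. These fits hold no spread between controls, so their p-values are not given. The calls of ASNS and PHGDH were lost when no filter was used (adjusted p = 0.0816 and 0.0779 by edgeR). Control 2 also held a higher share of counts from mitochondrially encoded transcripts, 4.06% against 3.31% in control 1 and 3.19% and 3.08% in the shSMARCA4 libraries, and the part of that in these values was not tested.

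The stress effectors TRIB3 and SESN2 did not pass and lay on opposite sides of 0. TRIB3 (ENSG00000101255.12, chromosome 20, 380760 to 397559, plus strand), a pseudokinase that restrains ATF4 and AKT, stood at 15.2 and 16.2 CPM in controls and at 12.9 and 13.7 CPM in the shSMARCA4 libraries. Its log2 fold change was -0.24 (SE 0.084, adjusted p = 0.0610 by edgeR). SESN2 (ENSG00000130766.5, chromosome 1, 28259518 to 28282491, plus strand), a leucine sensor that limits mTORC1, stood at 18.3 and 20.6 CPM in controls and at 22.2 and 22.6 CPM in the shSMARCA4 libraries. Its log2 fold change was 0.21 (SE 0.078, adjusted p = 0.0764 by edgeR). It was 0.30 without control 2 and 0.12 without control 1. SESN2 passed with scaling by library totals (adjusted p = 0.0361 by edgeR). SESN2 is known as a target of p53 as well as of ATF4.

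The 2 genes of the ER arm changed in opposite directions, with calls kept under all 13 alternatives. XBP1 (ENSG00000100219.17, chromosome 22, 28794557 to 28800558, minus strand), whose promoter is printed above, stood at 127 and 119 CPM in controls and at 104.0 and 104.1 CPM in the shSMARCA4 libraries. It fell by 0.24 on the log2 scale (SE 0.046, adjusted p = 0.00414 by edgeR), from 123 ± 5.59 to 104.1 ± 0.0339 CPM (SD, n = 2). EDEM1 (ENSG00000134109.11, chromosome 3, 5187707 to 5219958, plus strand), a lectin that passes misfolded glycoproteins to degradation and a known target of spliced XBP1, stood at 83.9 and 88.9 CPM in controls and at 106 and 107 CPM in the shSMARCA4 libraries. It rose by a log2 fold change of 0.30 (SE 0.046, adjusted p = 0.00127 by edgeR), a 1.23-fold higher level. EDEM1 had the highest log2 fold change of the 10, and XBP1 was among the 7 below 0.

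Set side by side, the arms were described without a test. In the amino acid arm 4 of 8 genes fell and 1 rose, with a median log2 fold change of -0.24 and a range from -0.35 to 0.22. In the ER arm 1 of 2 fell and 1 rose, with a median of 0.03. Relative to the control mean, the median of the amino acid arm was -0.07 in control 1, 0.07 in control 2, -0.27 in shSMARCA4 library 1 and -0.21 in shSMARCA4 library 2. The same medians of the ER arm lay between 0.00 (-0.0024 in control 2) and 0.04 (0.0365 in shSMARCA4 library 2), its 2 genes having moved in opposite directions.

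**Figure D3:**
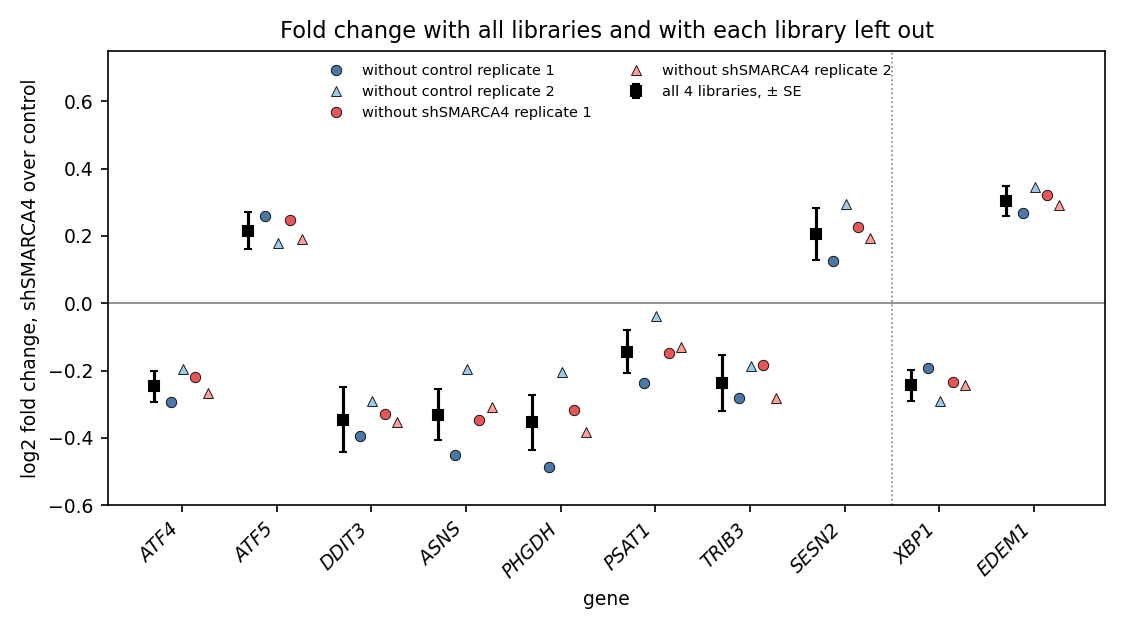
Log2 fold change of shSMARCA4 over control for each gene (vertical axis). Black squares use all 4 libraries with SE bars, and coloured symbols leave out 1 library each. ASNS and PHGDH move between about -0.2 and -0.5 as the controls are left out in turn, while XBP1 and EDEM1 stay between -0.29 and -0.19 and between 0.27 and 0.35.

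Other genes of the pathways were taken from 14 lists holding 231 genes that are no members, of which 226 were tested. Of these 35 rose and 55 fell, or 15.5% and 24.3%. Over all genes tested, 13.8% rose and 15.8% fell, the shares against which the counts of each list below are to be read. At the level of the members or above, 19.5% of all genes rose and 21.1% fell. Some of the pathway genes lie below that level, so the 2 sets are not matched for it. Without control 1 there were 59 higher, and without shSMARCA4 library 1 there were 22 higher and 36 lower (22 higher without shSMARCA4 library 2). Log2 fold changes with SE are given after each symbol below. Some genes stand in more than 1 list.

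Upstream of ATF4, in the list of eIF2 kinases and eIF2 control, 4 of 21 genes rose and 5 fell, with a median of -0.03. IMPACT (-0.97 ± 0.059), which restrains the amino acid sensing kinase GCN2, had the lowest value, from 44.6 and 46.2 CPM to 24.0 and 22.4 CPM. The phosphatase subunit PPP1CB (-0.48 ± 0.039), the eIF2B subunit EIF2B5 (-0.47 ± 0.052) and the eIF2 subunit EIF2S3 (-0.30 ± 0.038) also fell. The 4 eIF2 kinases were named after their values were seen: GCN2 (EIF2AK4, -0.20 ± 0.041) fell and PKR (EIF2AK2, 0.40 ± 0.049), which is also induced by interferon, rose. The GCN2 call was lost without shSMARCA4 library 1 and without shSMARCA4 library 2. The ER kinase PERK (EIF2AK3, -0.05 ± 0.063) and the haem-regulated kinase EIF2AK1 (-0.03 ± 0.037) did not pass. PPP1R15A, which encodes the stress-induced phosphatase subunit GADD34 and is itself raised in this response, stood at -0.16 ± 0.066 and did not pass (adjusted p = 0.0946 by edgeR). In that list 7 genes were higher without control 1 and 8 lower without control 2.

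Of 21 tested ATF, CREB and C/EBP factors, 1 rose and 4 fell, with a median of -0.11. JDP2 (-1.05 ± 0.12), a repressor of AP-1 and ATF sites, fell from 9.39 and 9.20 CPM to 4.14 and 4.85 CPM. The ER-bound factors CREB3L1 (-0.41 ± 0.043) and CREB3L2 (-0.27 ± 0.040) fell as well. The member that rose, named after its value was seen, was the stress-induced ATF3 (0.42 ± 0.088). The most abundant factor, NFE2L1 (0.08 ± 0.038), did not pass, though it did with library totals (adjusted p = 0.0251 by edgeR). In that list 7 genes were lower without control 1 or without control 2, and 3 higher without control 2. With library totals 4 were higher and 4 lower, and with no filter 0 were higher, so that the ATF3 call was lost.

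Of 15 tested enzymes of serine and folate carbon metabolism, 7 fell and 1 rose, with a median of -0.17. The cytosolic serine hydroxymethyltransferase SHMT1 (-0.64 ± 0.052) fell. The most abundant, MTHFD1 (-0.14 ± 0.038), fell, a call lost without shSMARCA4 library 1 or 2 (adjusted p = 0.264 and 0.205 by edgeR), and the list then held 3 and 4 genes lower and 0 higher. The mitochondrial enzyme MTHFD2 (0.17 ± 0.039), known as an ATF4 target, was the gene that rose and was named after its value was seen. Its call was lost without shSMARCA4 library 1 or 2 and also with no filter. With no filter the list held 0 higher and 3 lower, with library totals 4 lower and with DESeq2 3 lower. Of 15 other amino acid enzymes tested, 6 fell and 3 rose, with a median of -0.08. The glutamine synthetase GLUL (-0.65 ± 0.056), the branched-chain transaminase BCAT1 (-0.47 ± 0.038) and the aspartate transaminase GOT2 (-0.39 ± 0.041) fell. The proline synthesis enzymes PYCR1 (0.24 ± 0.055) and ALDH18A1 (0.19 ± 0.048), with BCAT2 (0.30 ± 0.052), were those that rose, named after their values were seen. Without shSMARCA4 library 2 the count higher was 1, and with no filter it was 2.

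The cytosolic tRNA synthetases were split by whether they are known to respond to ATF4. Of 13 genes in the responsive list, which includes the tRNA exporter XPOT, 7 fell and 0 rose, with a median of -0.12 and values from -0.48 to 0.01. WARS1 (-0.48 ± 0.061), which is also induced by interferon, fell from 310 and 339 CPM to 219.5 and 244 CPM, and YARS1 (-0.28 ± 0.042) and NARS1 (-0.24 ± 0.037) fell too. EPRS1 (-0.04 ± 0.038), the most abundant, did not pass and stood at 0.0047 with library totals. Of 8 cytosolic synthetases outside the list, 3 rose and 0 fell, with a median of 0.11. VARS1 (0.26 ± 0.050) and the subunits FARSA (0.22 ± 0.062) and FARSB (0.18 ± 0.045) of the phenylalanyl enzyme rose. KARS1 (0.11 ± 0.049), the most abundant of these, did not pass, but did with library totals (adjusted p = 0.0171 by edgeR) and upper-quartile scaling (0.0455). The FARSA value was 0.13 without control 2. Its call was lost without shSMARCA4 library 1 (adjusted p = 0.0637 by edgeR) and the FARSB call without shSMARCA4 library 1 or 2 (0.144 and 0.0503). In the first list 53.8% fell and in the second 37.5% rose, against 15.8% and 13.8% of all genes tested. The difference between the lists was not tested, and they were chosen with earlier results of these data known. The 13 alternatives refit the same 4 libraries, so they are no independent evidence. Over the 13 alternatives the first list held 5 to 8 genes that fell and 0 that rose, and the second 1 to 5 that rose and 0 that fell.

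Of 10 amino acid transporters known to respond to ATF4, 4 fell and 0 rose, with a median of -0.10. SLC43A1 (-1.22 ± 0.22) and the glycine transporter SLC6A9 (-1.01 ± 0.23) fell from low levels, at 2.41 and 3.22 CPM against 1.21 and 1.195 CPM and at 2.68 and 3.19 against 1.14 and 1.78 CPM. The serine and alanine transporter SLC1A4 (-0.39 ± 0.063) fell from 49.3 and 48.9 to 39.6 and 35.0 CPM. The abundant SLC7A5 (0.11 ± 0.054) did not pass, but did with library totals (adjusted p = 0.0268 by edgeR). Without control 1, and with library totals, the list held 2 genes higher, and without control 2 it held 1.

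Of 21 tested effectors downstream of ATF4 and DDIT3, 4 rose and 5 fell, with a median of -0.05. The death receptor TNFRSF10B (0.39 ± 0.044) and the BH3-only gene PMAIP1 (0.35 ± 0.046), both also targets of p53, rose. The autophagy receptor SQSTM1 (-0.37 ± 0.045) fell from 267 and 278 CPM to 216 and 204 CPM. CHAC1 (-0.05 ± 0.11), a glutathione-degrading enzyme much used as a readout of ATF4, was named after its value was seen and did not pass (adjusted p = 0.772 by edgeR). STC2 (-0.07 ± 0.060) did not pass, with 0.03 without control 1 and -0.15 without control 2. In that list 7 genes were higher without control 1 and 2 lower with no filter. Among paralogs of the members, 2 of 6 rose and 0 fell: TRIB2 (0.95 ± 0.16), from 2.38 and 3.13 to 5.38 and 5.25 CPM, and SESN1 (0.33 ± 0.081), a call lost without shSMARCA4 library 2 (adjusted p = 0.143 by edgeR). EDEM3 (0.09 ± 0.042) did not pass, but did with library totals (adjusted p = 0.0269 by edgeR). Of the paralogs 4 were higher without control 1 and with library totals, and 1 without shSMARCA4 library 2 and with no filter.

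Of 11 tested sensors and processing factors of the unfolded protein response, 3 rose and 0 fell, with a median of 0.12. They were the kinase MAP3K5 (0.78 ± 0.11), the protease MBTPS1 (0.19 ± 0.040), which cuts ATF6, and the ligase RTCB (0.16 ± 0.051), which joins XBP1 exons after IRE1 cuts them. The MBTPS1 call was lost without shSMARCA4 library 2 (adjusted p = 0.110 by edgeR), and the RTCB call without control 2 (0.0670, at a log2 fold change of 0.09), shSMARCA4 library 1 (0.129) or shSMARCA4 library 2 (0.1205). IRE1 itself (ERN1, 0.18 ± 0.098) stood at 7.62 and 7.62 CPM in controls and at 8.56 and 8.66 CPM in the shSMARCA4 libraries and did not pass (adjusted p = 0.217 by edgeR), named after its value was seen. Without shSMARCA4 library 2 the list held 1 gene higher, and without control 2 it held 2 lower.

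ER chaperones and oxidoreductases moved in both directions, with 5 of 27 higher and 6 lower and a median of -0.04. The proline isomerase FKBP14 (0.42 ± 0.050) and the chaperone HYOU1 (0.25 ± 0.041) rose, and the co-chaperone DNAJB11 (-0.23 ± 0.043) fell. HSP90B1 (-0.14 ± 0.036), the most abundant at 1590 and 1578 CPM in controls and 1429 and 1439 CPM in shSMARCA4 cells, fell, a call lost without shSMARCA4 library 1 or 2 (adjusted p = 0.262 and 0.172 by edgeR). The chaperone HSPA5 (BiP, 0.19 ± 0.042), the usual readout of ER stress, rose from 653 and 615 CPM to 719 and 723 CPM. It was named after its value was seen, and its call was not followed under the alternatives. The XBP1 target DNAJB9 (0.15 ± 0.10), named likewise, did not pass (adjusted p = 0.331 by edgeR). The count lower was 1 without shSMARCA4 library 1, 2 without shSMARCA4 library 2, 9 without control 2, and 3 with library totals, no filter or DESeq2.

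In ER-associated degradation, the process in which EDEM1 acts, 2 of 22 genes rose and 3 fell, with a median of 0.04. Together 22.7% passed, against 29.7% of all genes tested. The scaffold SEL1L (0.19 ± 0.038) rose, a call lost without shSMARCA4 library 1 (adjusted p = 0.0564 by edgeR). NPLOC4 (-0.35 ± 0.044), a cofactor of the segregase VCP, and the ubiquitin-conjugating enzyme UBE2J1 (-0.33 ± 0.060) fell. VCP (-0.16 ± 0.040) fell, a call lost without shSMARCA4 library 1 or 2 (adjusted p = 0.161 and 0.111 by edgeR). The count higher was 7 without control 1 and with library totals, 4 with upper-quartile scaling, 0 without shSMARCA4 library 1, and 1 without shSMARCA4 library 2 and with no filter, DESeq2 or limma-voom. In translocation and ER export 6 of 32 rose and 5 fell, with a median of -0.03. The coat subunit SEC24A (-0.59 ± 0.042), the GTPase SAR1A (-0.43 ± 0.043) and the channel subunit SEC61A1 (-0.35 ± 0.038) fell. SSR3 (-0.03 ± 0.068), the most abundant, changed sign between fits, at 0.10 without control 1 and -0.14 without control 2. In that list 11 genes were lower without control 2, while 2 were higher and 3 lower without shSMARCA4 library 1, and 3 higher and 3 lower without shSMARCA4 library 2 and with no filter. With DESeq2 it held 2 higher and 3 lower, and with library totals 9 higher and 3 lower. Of 10 mitochondrial chaperones and proteases, with which ATF5 is associated, 1 rose and 3 fell, with a median of 0.03. HSPA9 (0.23 ± 0.044) rose, while LONP1 (-0.15 ± 0.042) and HTRA2 (-0.29 ± 0.089) fell, both calls lost without shSMARCA4 library 1 (adjusted p = 0.294 and 0.0682 by edgeR) or 2 (0.165 and 0.280). The count lower was 0 in both of those fits and with library totals, no filter or DESeq2, and the count higher was 4 without control 1 and 3 with library totals. Of the genes named by rule in all lists, calls were also lost with no filter for MTHFD1, FARSA, FARSB, SESN1, RTCB, VCP, LONP1 and HTRA2, with DESeq2 for MTHFD1, RTCB, LONP1 and HTRA2, and with library totals for MTHFD1, HSP90B1, LONP1 and HTRA2.

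**Figure D4:**
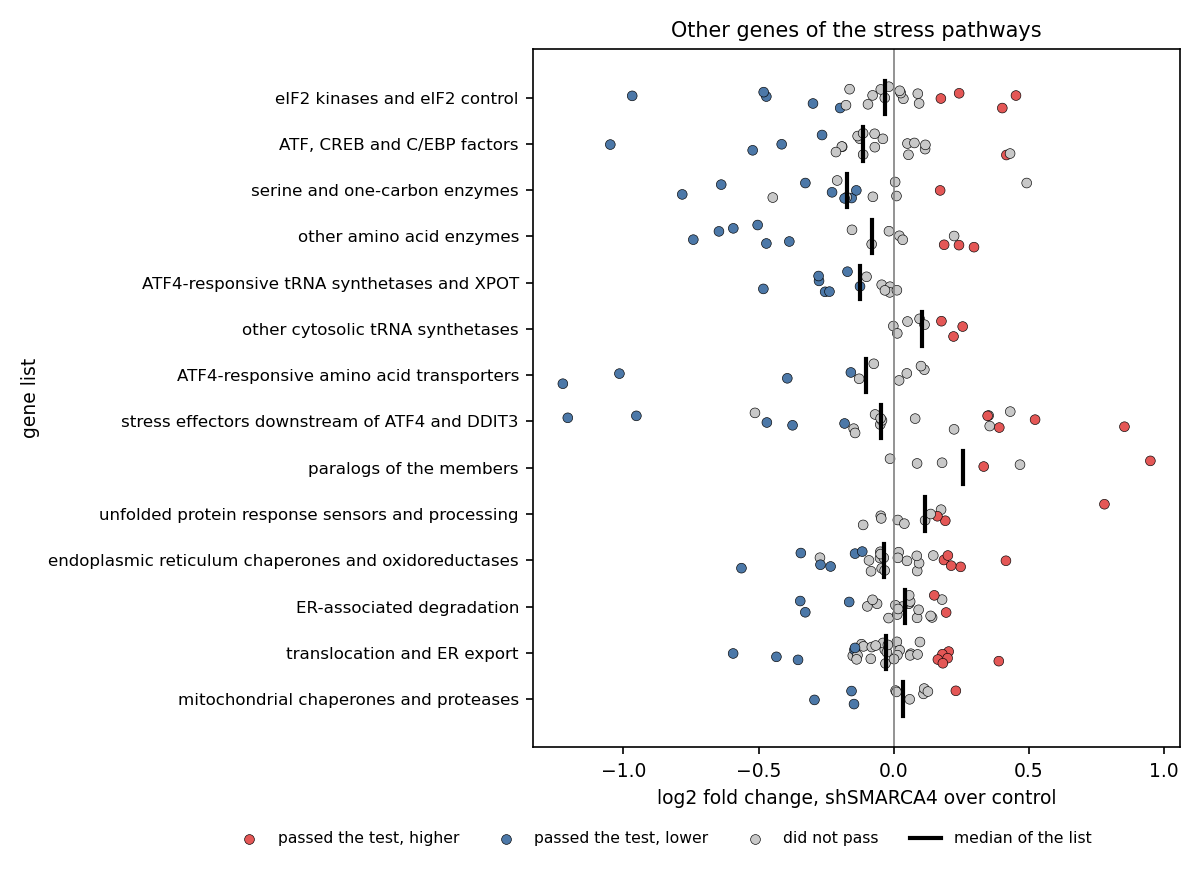
Log2 fold change of shSMARCA4 over control (horizontal axis) for each tested gene of the 14 lists (rows, points spread vertically for legibility). Red and blue points passed the test as higher and lower, grey points did not, and black bars are medians, which run from -0.17 in the serine and folate list to 0.26 in the paralogs.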

How the data were processed

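RNA was sequenced from FT190 cells in 2 control and 2 shSMARCA4 libraries, made from total RNA with a SMARTer kit per the labels' protocols. The counting command in the file header names 6 libraries, and the deposited counts cover 4. The authors deposited raw counts per gene, made with HOMER over exons of GENCODE release 45 on hg38, with reads on both strands counted and 1 transcript per gene, per the file header, so genes that overlap on either strand can share reads. The aligner STAR 2.6.1c and DESeq2 1.19.38 are named in the submitters' processing notes. The deposited Length column gave the bases per transcript.

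Groups came from the sample titles. Low genes were removed with filterByExpr (minimum count 10), libraries were scaled by the TMM method and genes were tested with edgeR 4.0.16 in R 4.3.3 (glmQLFit and glmQLFTest, two-sided, Benjamini-Hochberg over all genes kept). CPM values use the scaled totals. Each SE was derived from the fold change and its F statistic (size over root F). The test was also run on simulated counts, with 200 genes changed and a dispersion common to all genes. These settings differ from the data, so that run cannot show whether the calls here hold. An exact permutation test of 2 against 2 cannot go below p = 0.33 and was not used. Alternatives were other scaling, other filters, DESeq2 1.42.0, limma-voom (limma 3.58.1), a replicate block, protein-coding genes alone and each library left out, where the lone library is assumed to vary like the other group. Members and lists were chosen with earlier results of these data known. The rule for named genes takes all members and, per list, the 3 with the smallest adjusted p that passed and the most abundant; some genes it names are not reported here.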

Additional observations from a re-analysis of the deposited data

How the results depend on the processing

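The 10 members kept the sign of their log2 fold change under all 13 alternatives, as did their split of 7 below 0 and 3 above. The number that passed was 1 higher and 2 lower with no filter on low counts, and 1 higher with DESeq2 (4 lower). Leaving out each library gave 1 to 3 members higher and 4 to 7 lower. Over all genes, no filter gave 1403 higher and 1784 lower, DESeq2 gave 1625 and 1930, and leaving out each library gave 1724 to 3618 higher and 2077 to 3828 lower. Of the calls, 46.6% were higher with the main scaling and 59.5% with library totals, where the median of all genes moved to 0.04 (0.0446). Other pathway genes numbered 56 higher with library totals, 23 higher and 35 lower with no filter, and 22 to 59 higher and 36 to 76 lower as each library was left out. Signs reversed for EPRS1 (0.0047) and SSR3 (0.0248) with library totals, for SSR3 within -0.14 to 0.10 and for STC2 within -0.15 to 0.0263 as libraries were left out. The cause of these changes was not tested. No filter adds genes to the adjustment, and the scaling and dispersion were also estimated again with those genes. The part of each was not told apart.

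Libraries with the same replicate number deviated from their group means with a correlation of 0.075 across genes, so the numbers were not taken to pair the samples. With the replicate block 3187 genes were higher and 3562 lower, and 3 members were higher and 6 lower, with SESN2 (adjusted p = 0.0367) and TRIB3 (adjusted p = 0.0330, both by edgeR) then passing.

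Of the members, DDIT3 rested on the fewest counts, 236 to 362 a library, and how far depth limits its call was not tested.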
